A study of Mus musculus with 6 samples.

Results

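Lysosomes are acidic organelles in which proteases, glycosidases, sulfatases and lipid enzymes break down cell material. The transcription factor TFEB switches on many of their genes through E-box elements, and cystatins are small proteins that block cysteine proteases of the cathepsin family. Latexin inhibits carboxypeptidases and has a fold related to that of the cystatins. The genes described here are 44 named genes of this system, out of 19938 genes with a feature of their own on the array, matched by symbol to the probe-to-gene table. All 44 were measured, and no filter on low values was applied. They comprise 14 proteases, 13 glycosidases and sulfatases, 6 genes of lipid breakdown, 8 genes of membrane proteins, a nucleotidase and TFEB, and 3 cystatins.

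The arrays compared multipotent progenitors of wild-type mice (WT, intact latexin gene) with those of Lxn-/- mice, in which exons 2 to 4 of latexin are deleted; no other allele or agent is given. There were 3 arrays in each group. Every animal was a C57BL/6 mouse of 8 to 12 weeks, labelled female, and each array held RNA from about 100000 bone marrow cells pooled from 10 to 20 mice. The cells were sorted as lineage-negative, Sca-1+, c-Kit+, CD34+ and positive for a receptor written as Flt2, although the series text also calls them long-term stem cells. Values are log2 expression, differences are Lxn-/- minus WT with the standard error (SE) from limma, and n = 3 in each group throughout. In such pooled populations, fewer cells of a type and less RNA per cell cannot be told apart.

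The genotype labels have no check within these data, since latexin itself overlapped between the groups (8.56, 8.70 and 8.58 in WT, and 8.03, 8.53 and 8.61 in Lxn-/- arrays 1, 2 and 3). Which exons its feature reads is not known here, and a feature outside the deleted exons would check nothing. Lxn-/- arrays 1 and 3 also went against the label of female animals. Eif2s3y, a Y-linked gene, was 8.57 and 9.36 there and at most 3.97 on the other 4 arrays, while Xist was 6.86 and 5.85 there and at least 13.13 elsewhere. Results are therefore also given for Lxn-/- array 2 alone and for arrays 1 and 3 alone, and Lxn-/- means the arrays so labelled. The gate markers Flt3 and Cd34 lay between 12.45 and 13.48 on all arrays. Kit was 11.48 on Lxn-/- array 1, which is 0.65 below the WT mean, and 12.05 to 12.19 on the other 5 arrays; array 1 also had the lowest of the array weights estimated by limma (0.356, against 0.640 to 1.58). Without array 1 the log2 changes of the leading genes were 0.58 for Lgmn, 0.65 for Hpse, -0.52 for Entpd4 and 0.37 for Cst7. Ly6a, which encodes Sca-1, was not analysed here.

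The regulatory sequence before these genes was examined for the TFEB element, because that element is what the lysosomal genes are known to share. RefSeq promoter windows (GRCm38.p6, 250 bases before to 50 after the start) were held for 36 of the 44 genes. The E-box core CACGTG, which reads the same on both strands, occurred in 12 of the 36 genes (33.3%) and in 8.09% of all 27025 genes in the table. The longer form TCACGTGA, which contains the core, occurred in 4 of the 36 (Ctsa, Ctsd, Gla and Mcoln1) and in 1.12% of all genes. A stricter search, with a further base fixed at each end of that form, found 0 of the 36 and 0.37% of all genes. At so low a share, 0 of 36 cannot tell these genes from the rest. The 200 bases before the start are shown for Lgmn, the gene of largest change, for Hpse, which had the next largest change among enzymes and holds no core in its window, and for 3 genes with the longer form. Capitals mark the CACGTG core, and Lgmn has 2 windows in the table, of which the one with the core upstream is shown.
Lgmn, chr12:102439093-102439292, minus strand: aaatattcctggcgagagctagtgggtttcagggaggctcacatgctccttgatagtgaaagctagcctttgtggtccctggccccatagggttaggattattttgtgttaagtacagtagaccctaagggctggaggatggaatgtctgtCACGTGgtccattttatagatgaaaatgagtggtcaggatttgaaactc
Hpse, chr5:100719717-100719916, minus strand: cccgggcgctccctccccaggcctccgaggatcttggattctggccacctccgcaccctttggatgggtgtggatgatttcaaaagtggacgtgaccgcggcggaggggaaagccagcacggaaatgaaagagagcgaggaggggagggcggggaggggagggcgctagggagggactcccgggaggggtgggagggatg
Ctsd, chr7:142387828-142388027, minus strand: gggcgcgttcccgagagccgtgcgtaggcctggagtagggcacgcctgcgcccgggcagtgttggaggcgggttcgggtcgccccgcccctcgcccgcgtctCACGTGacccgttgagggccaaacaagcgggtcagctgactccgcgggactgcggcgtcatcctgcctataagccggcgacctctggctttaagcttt
Mcoln1, chr8:3500319-3500518, plus strand: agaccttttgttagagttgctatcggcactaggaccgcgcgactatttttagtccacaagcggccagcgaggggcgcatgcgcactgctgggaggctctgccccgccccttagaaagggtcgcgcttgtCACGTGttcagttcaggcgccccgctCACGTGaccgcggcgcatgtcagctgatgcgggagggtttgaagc
Gla, chrX:134601006-134601205, minus strand: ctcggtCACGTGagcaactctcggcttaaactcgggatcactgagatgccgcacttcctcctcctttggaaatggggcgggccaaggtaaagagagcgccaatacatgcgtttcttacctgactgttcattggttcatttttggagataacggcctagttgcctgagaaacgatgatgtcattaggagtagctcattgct
In Lgmn the core begins 49 bases before the start, in Mcoln1 71 and 45. Ctsd holds a core at 98 and Gla one at 194, and each has a further core upstream of the stretch shown, at 245 and 227. A match describes letters in the window and not binding.

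Across the 44 genes, most differed little between the groups, and 4 stood out by a log2 change of at least 0.5: Lgmn, Hpse and Cst7 with higher means and Entpd4 with a lower mean in the Lxn-/- arrays. Such a change occurred in 1.25% of all features. None of the 44 passed an adjusted p of 0.05 in limma over all 23410 features (0% of features passed), and the smallest adjusted p was 0.340. At an unadjusted p under 0.05 there were 8 genes with higher and 2 with lower means, where 5.06% of all features were higher and 9.23% lower by this rule. When the arrays were quantile-normalized again, the counts were 3 higher and 5 lower. With each array centred on its median instead, they were 11 higher and 2 lower. Lgmn and Cst7 passed without Lxn-/- array 2, when 0.619% of all features did and the comparison was of the 2 arrays with Y-linked signal against WT. With array 2 as the only Lxn-/- array, none of the 44 passed, against 0.0128% of all features.

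The groups did not overlap for 14 of the 44 genes and for 21.6% of all features. Of these, 12 had all Lxn-/- values above all WT values, against 8.54% of all features, and 2 had them all below, against 13.0%. The median change was 0.06 over the 44 genes and -0.04 over all features tested, and 34 of the 44 means were higher against 42.2% of all features. That majority depended on the scaling, since 21 of 44 were higher after repeated quantile normalization, with a median of -0.02. With each array centred on its median, 36 of 44 were higher, with a median of 0.12. The median of the 44 genes relative to the WT mean was 0.03, 0.12 and 0.07 in Lxn-/- arrays 1, 2 and 3, and -0.03, 0.04 and 0.02 in WT arrays 1, 2 and 3, so the 2 ranges overlapped.

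**Figure D1:**
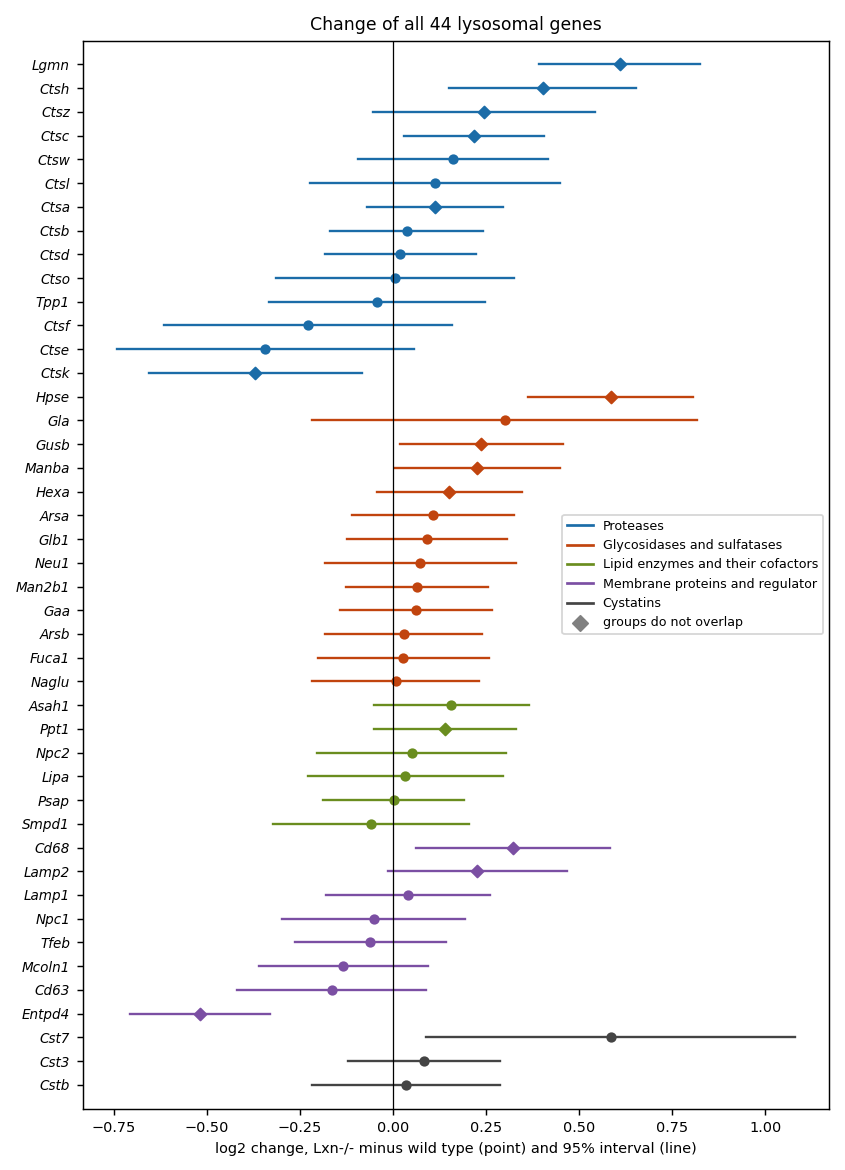
Log2 change (Lxn-/- minus WT, x axis) of all 44 lysosomal genes, grouped by role, with 95% intervals from limma and n = 3 arrays in each group. Lgmn (0.61), Hpse (0.58), Cst7 (0.58) and Entpd4 (-0.52) lie farthest from 0, and diamonds mark the 14 genes whose groups do not overlap.

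Among the proteases, Lgmn had the largest difference of the 44 genes. It encodes legumain, an asparaginyl endopeptidase that also matures several cathepsins. It was 7.98, 8.09 and 8.12 in WT arrays 1, 2 and 3, and 8.74, 8.54 and 8.74 in the Lxn-/- arrays. The groups lay well apart, with the lowest Lxn-/- value in array 2, the array without Y-linked signal. The mean was 1.53-fold higher (log2 change 0.61, SE 0.10, 95% interval 0.39 to 0.83), with an adjusted p of 0.340 in limma. Without Lxn-/- array 2 the change was 0.68 and passed with an adjusted p of 0.0182. Array 2 alone lay 0.48 above the WT mean (SE 0.13), with an adjusted p of 0.324. In the 15 alternative settings run for it, the change ranged from 0.48 to 0.68.

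The aminopeptidase gene Ctsh and the dipeptidyl peptidase gene Ctsc also had separate groups. Ctsh, which encodes cathepsin H, was 8.18, 8.05 and 8.11 in WT and 8.34, 8.48 and 8.72 in the Lxn-/- arrays. Its log2 change was 0.40 (SE 0.11, adjusted p 0.340 in limma), and array 2 alone lay 0.37 above the WT mean. Ctsc encodes cathepsin C, which activates the serine proteases of neutrophil granules. It was 10.46, 10.50 and 10.40 in WT and 10.68, 10.71 and 10.62 in the Lxn-/- arrays, a tight separation of 0.22 (SE 0.08, adjusted p 0.340 in limma). Repeated quantile normalization reduced that difference to 0.13. The granule serine protease gene Ctsg was 12.33, 12.27 and 11.98 in WT and 12.56, 12.37 and 12.69 in the Lxn-/- arrays, without overlap. Elane and Prtn3, also genes of granule serine proteases, overlapped between the groups. Elane was 11.93, 12.52 and 11.48 in WT and 11.43, 11.83 and 12.46 in the Lxn-/- arrays. Prtn3 was 11.45, 11.72 and 11.35 in WT and 11.82, 11.64 and 11.80 in the Lxn-/- arrays. Of 10 neutrophil marker genes, 8 had higher means in the Lxn-/- arrays, against 42.2% of all features. All 10 overlapped between the groups, and 1 (Lcn2) had an unadjusted p under 0.05, where 14.3% of all features did. Their summed log2 levels were 14.57 to 14.99 in WT and 14.65 to 15.05 in the Lxn-/- arrays. The part of such cells in these differences was not tested.

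Ctsk, the collagen-degrading cathepsin of osteoclasts, ran the other way. It was 6.72, 6.94 and 6.58 in WT and 6.57, 6.33 and 6.22 in the Lxn-/- arrays, with all Lxn-/- values below WT by a narrow margin. The log2 change was -0.37 (SE 0.13, adjusted p 0.340 in limma), and -0.24 after repeated quantile normalization. Ctsk was the only 1 of the 44 with a mean inside the range of 20 genes of other tissues such as Alb and Myh6 (3.97 to 7.96). Features differ in how brightly they read, so that range shows only where a signal may be background. Of those 20 genes, 19 also had lower means in the Lxn-/- arrays, with a median change of -0.15, and the part of this shift in the Ctsk difference was not tested.

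The other 10 proteases gave no single direction. The groups did not overlap for Ctsz and Ctsa, both carboxypeptidase genes. Ctsz, whose product trims single residues, was 11.31, 11.39 and 11.32 in WT and 11.89, 11.43 and 11.42 in the Lxn-/- arrays, so array 1 stood out and the other 2 lay just above WT. Ctsa, which encodes the protective protein of the galactosidase and sialidase complex, was 11.72, 11.80 and 11.77 in WT and 11.90, 11.87 and 11.86 in the Lxn-/- arrays. Both separations were narrow.

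The aspartic protease gene Ctse and the cysteine protease gene Ctsf were lowest on the 2 arrays with Y-linked signal. Ctse was 10.16, 10.63 and 10.19 in WT and 9.75, 10.34 and 9.86 in the Lxn-/- arrays, with array 2 inside the WT range and the others below it. Ctsf was 8.32, 8.58 and 8.67 in WT and 7.96, 8.65 and 8.27 in the Lxn-/- arrays, in the same order. For Ctsf, array 3 lay just below the lowest WT value. Without Lxn-/- array 2 the changes were -0.52 for Ctse and -0.41 for Ctsf, with adjusted p of 0.270 and 0.343 in limma. The 8 mast cell and basophil markers had summed log2 levels of 12.34 to 12.55 in WT and 11.02, 12.02 and 12.16 in Lxn-/- arrays 1, 2 and 3. The part of mast cells and basophils in the Ctse and Ctsf values was not tested.

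The remaining 6 proteases overlapped between the groups. The major endopeptidase genes Ctsb and Ctsd are given by their ranges: Ctsb was 10.79 to 10.99 in WT and 10.87 to 10.99 in the Lxn-/- arrays, and Ctsd was 11.53 to 11.74 and 11.65 to 11.70. Ctsl was more variable in WT (9.05, 9.54 and 9.53) than in the Lxn-/- arrays (9.49, 9.32 and 9.65). The peptidase genes Ctso, Ctsw and Tpp1 also had interleaved values. Ctsw, a cathepsin of cytotoxic lymphocytes, was 8.30 to 8.67 in WT and 8.63 to 8.74 in the Lxn-/- arrays.

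**Figure D2:**
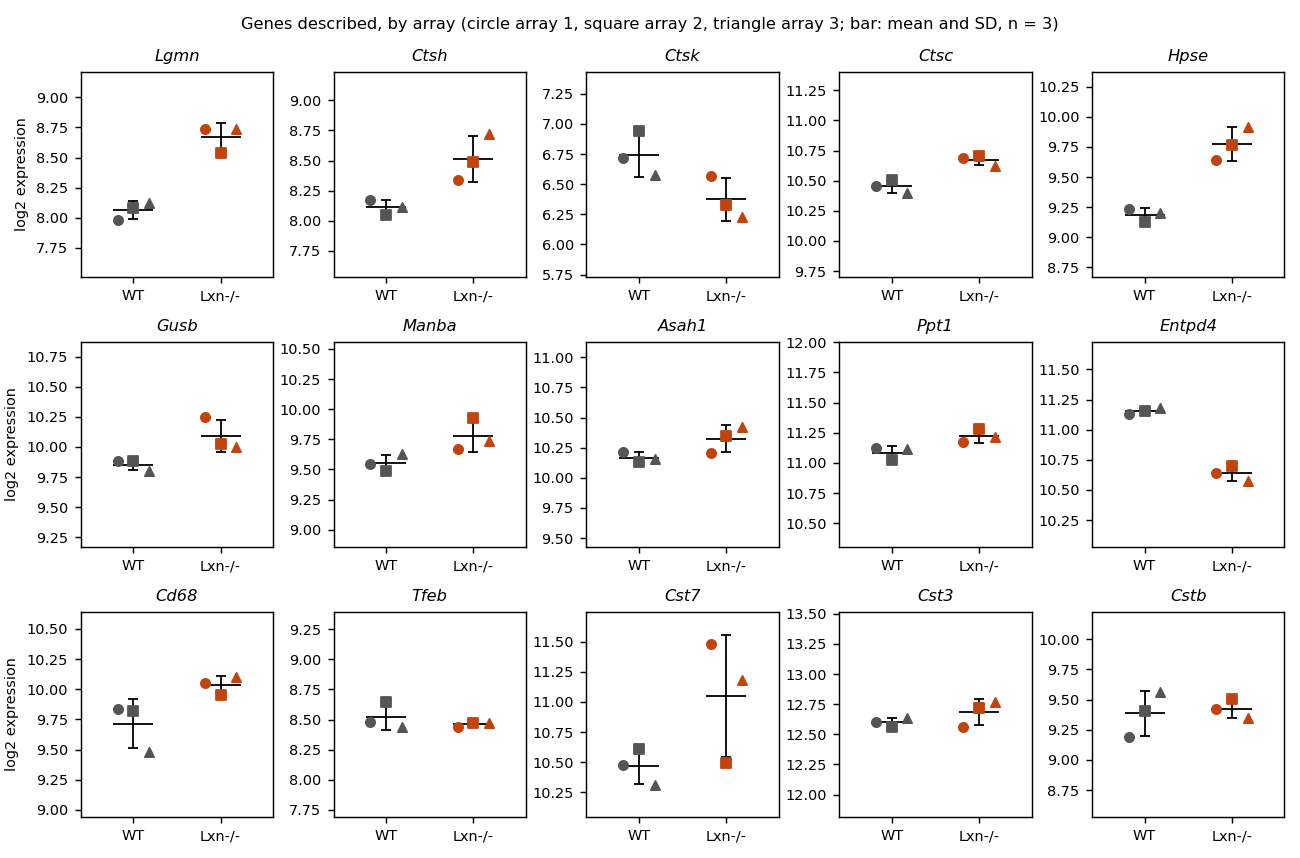
Log2 expression (y axis, each panel spanning the same range) of the 15 genes described in full, by genotype label and array. Points are single arrays and bars the mean with SD (n = 3); Lgmn, Hpse and Entpd4 separate on all 3 Lxn-/- arrays, whereas Lxn-/- array 2 of Cst7 sits among the WT values.

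Hpse led the glycosidases. It encodes heparanase, which cuts heparan sulfate chains inside lysosomes and in the extracellular matrix. It was 9.23, 9.13 and 9.20 in WT and 9.64, 9.77 and 9.92 in the Lxn-/- arrays, with a gap between the groups larger than the spread within either. The log2 change was 0.58 (SE 0.10, 95% interval 0.36 to 0.81, adjusted p 0.340 in limma). Arrays 1 and 3 lay 0.59 above the WT mean and array 2 alone 0.58 (SE 0.12), so the difference was as large on the array without Y-linked signal. Across its 15 alternatives the change ran from 0.50 to 0.65.

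Enzymes that complete heparan sulfate breakdown had smaller differences or overlapping groups. Gusb, which encodes beta-glucuronidase, was 9.88, 9.88 and 9.80 in WT and 10.25, 10.02 and 10.00 in the Lxn-/- arrays, without overlap but at a smaller log2 change of 0.24 (SE 0.10, adjusted p 0.341 in limma), or 0.15 after repeated quantile normalization. Naglu, the glucosaminidase gene of this chain, was 8.75 to 9.03 in WT and 8.84 to 8.91 in the Lxn-/- arrays. Idua, Ids, Sgsh and Hgsnat, of the same route, each had overlapping groups, for example Sgsh at 9.45, 9.46 and 9.46 in WT and 9.08, 9.56 and 9.56 in the Lxn-/- arrays. The sulfatase gene Arsg, also of this route, had all Lxn-/- values below WT (log2 change -0.12, SE 0.08). Its means lay inside the range of the other-tissue genes. Whether heparanase differed from each of these was not tested.

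Manba and Hexa were the other glycosidase genes without overlap. Manba, which encodes beta-mannosidase, was 9.54, 9.49 and 9.63 in WT and 9.67, 9.93 and 9.74 in the Lxn-/- arrays. Its log2 change was 0.23 (SE 0.10, adjusted p 0.345 in limma) and fell to 0.14 after repeated quantile normalization. Hexa, a beta-hexosaminidase subunit gene, was 10.74, 10.80 and 10.76 in WT and 10.86, 11.02 and 10.88 in the Lxn-/- arrays. Both genes had their highest value on Lxn-/- array 2.

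Gla, the X-linked gene of alpha-galactosidase A, split by array. It was 9.16, 9.26 and 8.97 in WT and 9.46, 8.89 and 9.96 in Lxn-/- arrays 1, 2 and 3. The 2 arrays with Y-linked signal lay above WT and array 2 below it. The SD of the Lxn-/- group was 0.53 against 0.15 in WT. The other 8 of this role (Gaa, Glb1, Neu1, Man2b1, Fuca1, Naglu, Arsa and Arsb) overlapped between the groups. They include the acid maltase gene Gaa, at 10.08 to 10.17 in WT and 10.08 to 10.29 in the Lxn-/- arrays, and the sulfatase gene Arsb, at 10.75 to 10.88 and 10.71 to 10.92. All 13 means of the role were higher in the Lxn-/- arrays (changes from 0.01 to 0.58), but those of Gaa, Man2b1, Fuca1, Naglu and Arsb turned lower after repeated quantile normalization.

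**Figure D3:**
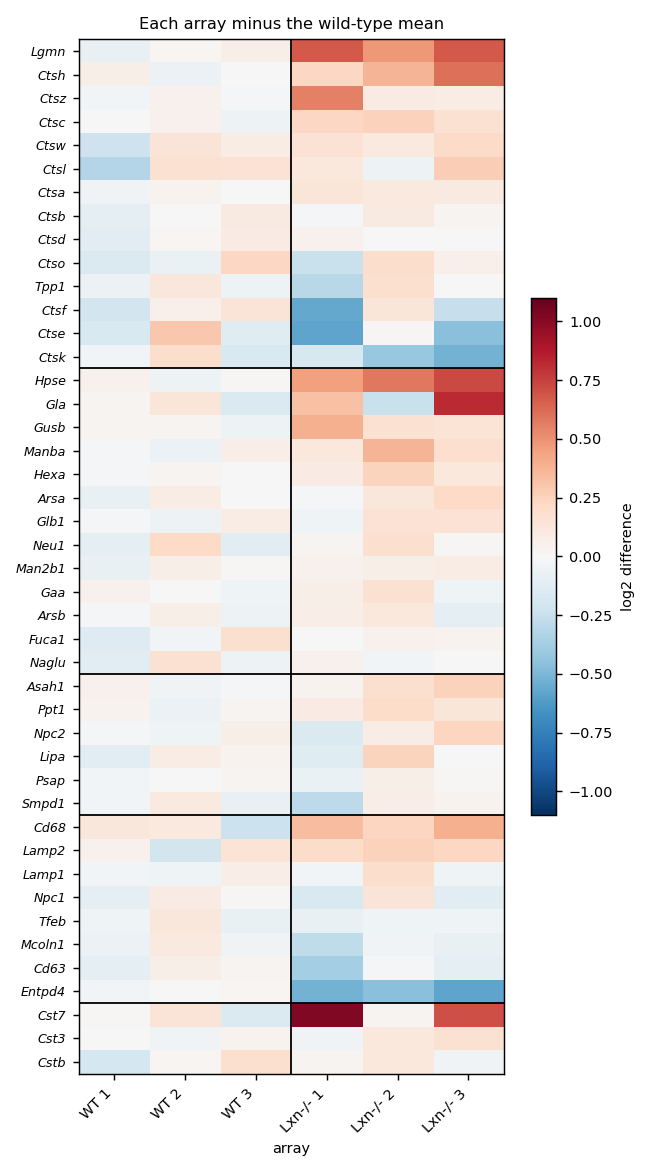
Difference of each array (columns) from the WT mean for the 44 genes (rows, grouped by role and separated by lines), in log2 units from blue (lower) to red (higher). Lgmn, Hpse and Entpd4 keep one colour on all 3 Lxn-/- arrays, while Cst7, Gla, Ctse and Ctsf change between array 2 and the other 2.

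Genes of lipid breakdown had changes from -0.06 to 0.16 and 0 of 6 at an unadjusted p under 0.05, where 14.3% of all features passed. Asah1, which encodes acid ceramidase, was 10.22, 10.13 and 10.16 in WT and 10.20, 10.34 and 10.43 in the Lxn-/- arrays, a log2 change of 0.16 (SE 0.09, 95% interval -0.05 to 0.36, adjusted p 0.414 in limma). Ppt1, a thioesterase that removes palmitate from proteins, was 11.12, 11.02 and 11.11 in WT and 11.17, 11.28 and 11.22 in the Lxn-/- arrays. It was the only gene of this role whose groups did not overlap, at 0.14 (SE 0.08, 95% interval -0.05 to 0.33, adjusted p 0.424 in limma). After repeated quantile normalization the changes were 0.07 for Asah1 and 0.06 for Ppt1. Psap, the precursor of the saposins that present sphingolipids to their enzymes, was 12.70, 12.74 and 12.76 in WT and 12.66, 12.80 and 12.75 in the Lxn-/- arrays. Smpd1 (acid sphingomyelinase), Lipa (acid lipase) and Npc2 (a cholesterol carrier) were likewise interleaved.

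Entpd4 had the largest lower difference of the 44 genes. It encodes a nucleoside diphosphatase of the Golgi and lysosomal membranes. It was 11.13, 11.16 and 11.18 in WT and 10.64, 10.70 and 10.58 in the Lxn-/- arrays, and both groups were tight (SD 0.03 and 0.06). The mean was 1.43-fold lower (log2 change -0.52, SE 0.08, 95% interval -0.71 to -0.33, adjusted p 0.340 in limma). Array 2 alone was at -0.46 (SE 0.12), and arrays 1 and 3 at -0.55 with an adjusted p of 0.0602. The gene table lists a second gene, Entpd4b, on the same chromosome 14, and whether the feature also reads its RNA was not tested.

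Cd68 and Lamp2, which encode heavily glycosylated proteins of the lysosomal membrane, had higher values without overlap. Cd68, whose product is abundant in macrophages, was 9.84, 9.82 and 9.48 in WT and 10.05, 9.95 and 10.10 in the Lxn-/- arrays (log2 change 0.32, SE 0.12, adjusted p 0.340 in limma). WT array 3 was low, and without it the change was 0.21. Of 15 macrophage and monocyte markers, 14 had lower means in the Lxn-/- arrays and 1 a higher mean, where 42.2% of all features had higher means. Their summed log2 level was 11.76 to 11.89 in WT and 11.55 to 11.97 in the Lxn-/- arrays. Among the 14, Itgam had a mean of 9.75 in both groups, with 9.17, 10.19 and 9.89 in the Lxn-/- arrays. The gene with a higher mean was Csf1r, the receptor gene of macrophage growth factor. It was 9.65, 9.22 and 9.21 in WT and 9.70, 9.96 and 9.92 in the Lxn-/- arrays. Of the 15, 12 had means inside the range of the other-tissue genes, of which 19 of 20 also had lower means. The part of macrophages in the Cd68, Lgmn and Ctsh values was not tested. Lamp2, which is X-linked, was 10.63, 10.38 and 10.72 in WT and 10.77, 10.83 and 10.80 in the Lxn-/- arrays, with array 2 the highest.

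The other membrane proteins overlapped between the groups. Lamp1, the partner of Lamp2 in the lysosomal coat, was 11.20 to 11.33 in WT and 11.21 to 11.44 in the Lxn-/- arrays. The cholesterol exporter gene Npc1, the calcium channel gene Mcoln1 and the tetraspanin gene Cd63 each had their lowest value on Lxn-/- array 1, at 10.83, 10.46 and 9.20. Tfeb was 8.48, 8.65 and 8.44 in WT and 8.44, 8.47 and 8.47 in the Lxn-/- arrays. Its log2 change was -0.06 (SE 0.09, 95% interval -0.26 to 0.14, adjusted p 0.731 in limma), an interval that leaves room for a difference of up to 0.26 in size.

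Genes with and without the TFEB core in their promoter window covered similar ranges of change. The 12 with CACGTG had log2 changes from -0.23 to 0.61 with a median of 0.08, and the 24 without it ranged from -0.37 to 0.58 with a median of 0.07. Of the first, 1 (Lgmn) had an unadjusted p under 0.05, and of the second, 7 did, where 14.3% of all features did. The genes without a window (Asah1, Cstb, Ctsb, Ctse, Ctsh, Ctsw, Entpd4 and Npc1) are in neither count. Among them, Entpd4 and Ctsh also had an unadjusted p under 0.05. The 4 genes with the longer form had log2 changes from -0.13 to 0.30. Of these, Ctsd, Mcoln1 and Gla overlapped between the groups, with Gla split by array as described above. Ctsa had all Lxn-/- values above WT, at a log2 change of 0.11 (SE 0.08).

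Cst7 gave the widest spread of the 3 cystatins. It encodes cystatin F, which enters lysosomes and inhibits cathepsin C among others. It was 10.48, 10.61 and 10.31 in WT and 11.48, 10.49 and 11.18 in Lxn-/- arrays 1, 2 and 3. Arrays 1 and 3 lay far above WT and array 2 inside its range, the same split of arrays as the Y-linked signal. The log2 change was 0.58 (SE 0.22, adjusted p 0.340 in limma) over all arrays, 0.86 without array 2 (SE 0.14, adjusted p 0.0143) and 0.03 for array 2 alone. The change was 0.37 without Lxn-/- array 1. T and NK cells are known to make cystatin F, and their 8 markers had summed log2 levels of 11.85 to 11.98 in WT and 12.18, 11.90 and 12.30 in Lxn-/- arrays 1, 2 and 3. Of these markers, 3 had higher and 5 lower means in the Lxn-/- arrays, where 42.2% of all features had higher means. Their median change was -0.05, against -0.04 over all features. The marker medians in Lxn-/- arrays 1, 2 and 3 were 0.15, -0.13 and -0.08 relative to the WT mean. Of the 8, 7 had means in the range of the other-tissue genes. The exception, the granule protein gene Nkg7, carried most of the sum and was 11.62, 11.70 and 11.56 in WT and 11.92, 11.65 and 12.11 in the Lxn-/- arrays. The part of such cells in the Cst7 values was not tested.

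Cst3 and Cstb showed no such split. Cst3, the secreted cystatin C, was 12.60, 12.56 and 12.64 in WT and 12.56, 12.72 and 12.77 in the Lxn-/- arrays (log2 change 0.08, SE 0.09, 95% interval -0.12 to 0.29, adjusted p 0.632 in limma). The Cst3 change was 0.14 without Lxn-/- array 1, 0.039 without Lxn-/- array 3 and 0.022 after repeated quantile normalization. Cstb, the cytosolic stefin B, was 9.19, 9.40 and 9.57 in WT and 9.42, 9.50 and 9.35 in the Lxn-/- arrays (0.04, SE 0.11, 95% interval -0.22 to 0.29, adjusted p 0.880 in limma). The groups overlapped for both genes, and the sign for Cstb turned after repeated quantile normalization.

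**Figure D4:**
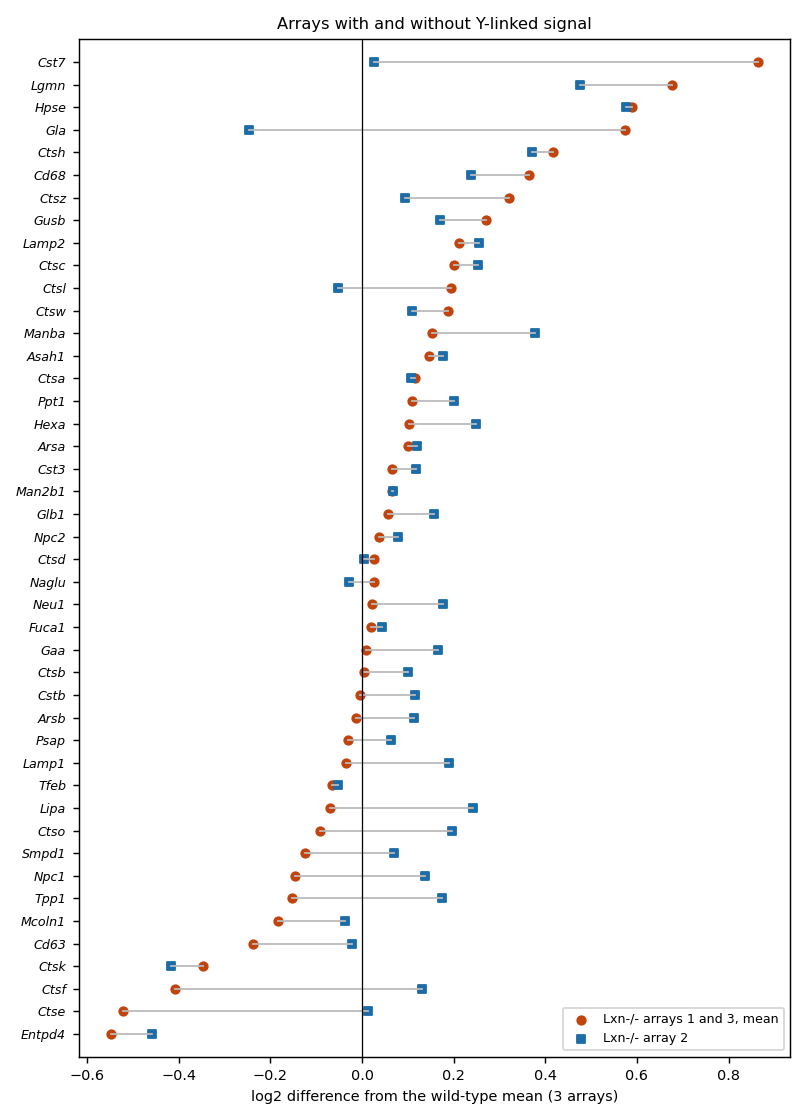
Log2 difference from the mean of the 3 WT arrays (x axis) for each of the 44 genes, for the mean of Lxn-/- arrays 1 and 3 (circles, Y-linked signal) and for Lxn-/- array 2 (squares). The symbols nearly coincide for Hpse (0.59 and 0.58) and are far apart for Cst7 (0.86 and 0.03) and Gla (0.57 and -0.25).

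Other genes of the lysosome were described from a list of 144, of which 129 had a feature of their own. The list, called other lysosomal genes here, also holds protease inhibitors, latexin itself among them. None of the 129 passed the adjusted threshold in limma. At an unadjusted p under 0.05, 10 had higher means and 2 lower, against 5.06% and 9.23% of all features. Repeated quantile normalization gave 3 and 1, and arrays centred on their median gave 17 and 1. The median change of the 129 was 0.04, with 84 means higher (65.1%, against 42.2% of all features) and 45 lower. Whether this share depends on the scaling was not tested. Of the 14 inhibitor genes measured, 3 means were higher and 11 lower.

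Of 8 proteases measured outside the 44 genes, 3 were higher at an unadjusted p under 0.05, against 5.06% of all features. Dpp7, a dipeptidyl peptidase gene, was 8.46, 8.70 and 8.58 in WT and 9.03, 8.88 and 8.97 in the Lxn-/- arrays (log2 change 0.38, SE 0.10). Scpep1, a serine carboxypeptidase gene, had a change of 0.30 (SE 0.10), and Ctsg one of 0.35 (SE 0.12). All 3 had separate groups, as did 8.54% of all features in this direction, with an adjusted p of 0.340 each in limma.

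Of 20 genes of the proton pump that acidifies lysosomes (the V-ATPase), 3 had an unadjusted p under 0.05, a share close to the 14.3% of all features, and they did not share a direction. Atp6v1d and Atp6v1c1, of the cytosolic part, had changes of 0.36 (SE 0.14) and 0.28 (SE 0.11), with Atp6v1d highest on Lxn-/- array 3 (10.94, against 10.38 and 10.60). Atp6v0e2, of the membrane part, was 7.55, 7.67 and 7.76 in WT and 7.42, 7.32 and 7.26 in the Lxn-/- arrays (-0.33, SE 0.09), with a mean inside the range of the other-tissue genes. The remaining genes at this level were the sulfatase-activating Sumf1 (0.27), the fucosidase gene Fuca2 (0.25), the membrane protein gene Laptm4b (0.21), and Rraga and Lamtor1 (0.22 and 0.20), whose products recruit the growth kinase mTORC1 to lysosomes. Of 14 measured inhibitor genes outside the cystatins above, the trypsin inhibitor gene Spink2 was the only one (-0.35); its groups overlapped and its mean lay in that range too. None of the 19 genes of sorting to lysosomes had an unadjusted p under 0.05 (14.3% of all features did).

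**Figure D5:**
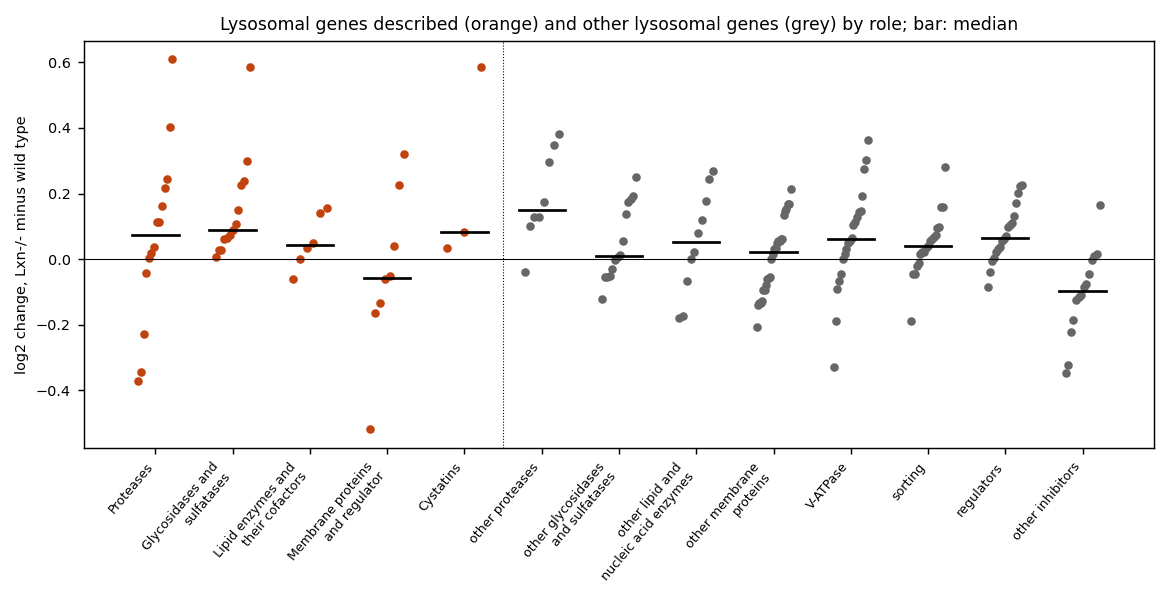
Log2 change (y axis, Lxn-/- minus WT) of the 44 genes in 5 roles (orange) and of 129 other lysosomal genes in 8 roles (grey), with a bar at each median. Lgmn (0.61), Hpse (0.58), Cst7 (0.58) and Entpd4 (-0.52) lie farthest from 0 in their roles.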

How the data were processed

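Total RNA (100 ng) was hybridised to Affymetrix MoGene 1.0 ST arrays. The authors deposited log2 expression values, normalized by RMA per the series text; the log2 scale was read from the values, and the submitters' processing notes also list Partek 6.0. The genome build is not named in the labels or files. Gene names came from the array's probe table, with symbols updated from RefSeq (GRCm38.p6). Where a gene had several features (Arsb), the one of highest mean was used. Groups were compared with limma 3.58.1 (R 4.3.3; lmFit, eBayes, two-sided) over 23410 features with Benjamini-Hochberg adjustment, and the fit was tested on simulated data. The labels call the 3 arrays of a group biological replicates, each a pool of mice, so p-values measure the spread between pools, and their number limits the precision. Where Lxn-/- array 2 stood alone, it was assumed to vary like the WT arrays. RMA equalizes arrays, so total RNA per cell is not measured. Summed marker levels are log2 of summed linear values. The genes and lists were chosen with earlier results of these data known. Genes with a value per array and full statistics are those at an unadjusted p under 0.05 (up to 5 a role), at least 2 a role, and Lgmn, Hpse, Entpd4, Tfeb and the cystatins. Other values per array were chosen after they were seen. Of other lysosomal genes, up to 3 a role of smallest p are named with a change. Same-numbered arrays were not treated as pairs in the main fit, and the labels name no pairing. Their deviations from the group means correlated at 0.076, -0.008 and -0.006, which cannot show whether such pools were handled together. Figures used matplotlib 3.10.9 in Python 3.11.15.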

Additional observations from a re-analysis of the deposited data

How the results depend on the processing

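With 3 pools a group, no gene passed the adjusted threshold, and intervals for most of the 44 genes still allow changes of 0.2 or more. The named genes (27, under up to 15 alternatives each) kept direction and side of the threshold in 396 values; 4 reversed, and Lgmn and Cst7 passed without Lxn-/- array 2. Over all features, 0 passed; the fit with the replicate number as a block gave 1, leaving out both arrays with Y-linked signal gave 3, and leaving out single arrays gave 0 to 145. In that block fit 0 of the 44 genes passed, and 2 of 6 arrays correlated best with their own number. The count of features at an unadjusted p under 0.05 (3346) was 1812 after repeated quantile normalization, 1356 among features above the median level, 5614 with array weights and 1628 to 5541 without single arrays. Without single arrays, 0 to 2 of the 44 genes passed. Of the 44, the 8 higher at an unadjusted p under 0.05 became 4 without both Y-linked arrays, 3 after quantile normalization, 3 at p under 0.01 and 4 to 8 without single arrays. That count rose to 11 with arrays centred on their median and to 10 with array weights. The 2 lower became 5 after quantile normalization, 1 among features above the median level, 1 with the equal-variance test, 1 at p under 0.01 and 1 to 4 without single arrays. Of the other lysosomal genes, the 10 higher became 3 after quantile normalization, 17 with arrays centred on their median, 16 with array weights and 3 to 17 without single arrays. The 2 lower became 1, 1 and 4 under those settings, 0 among features above the median level and 1 to 4 without single arrays. The median change of the 44 genes (0.06) was 0.12 without both Y-linked arrays, -0.021 after quantile normalization, 0.12 with centred arrays, 0.11 with array weights and 0.026 to 0.11 without single arrays. Quantile normalization moved the median of all features from -0.04 to -0.01, and centring moved it to 0.02. Cstb turned to -0.049 after quantile normalization and ranged from -0.063 to 0.12 without single arrays. Tfeb ranged from -0.10 to 0.0015 without single arrays. The cause of these shifts was not tested.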
